A study of Mus musculus with 4 samples.

Results

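Cxcl12, Cxcr4 and Ackr3 are 3 of the 30406 genes listed in all 4 single-cell RNA-seq libraries of mouse lower limb vessels, and were chosen by name as a chemokine and its receptors. Each library held cells of the popliteal lymphatic vessels (PLVs) and the neighbouring superficial saphenous vein, pooled from 3 mice on a C57BL/6J background. The tdT1 and tdT2 libraries were sorted for the red reporter from male and female Cspg4-Cre;Ai9-tdTomato mice (Cre+/-, Ai9+/-) over 8 months old, in which Cre is driven by the Cspg4 promoter and leaves tdTomato on in every descendant of a cell that used it. For the WT and TNF-Tg libraries, cells of males, 9 months old by the labels, were sorted on light scatter alone, and TNF-Tg mice carry a human TNF transgene that gives chronic inflammatory-erosive arthritis. Sort, sex and transgenes differed between the tdT pair and the other libraries, so their parts in any difference between those pairs cannot be told apart. WT and TNF-Tg were 1 library each, so no test of that difference was possible.

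CXCL12 is a chemokine that stromal cells secrete, and it is best known for holding haematopoietic cells and neutrophils in the bone marrow. CXCR4 is its signalling receptor on leukocytes, which move up a gradient of the ligand. ACKR3 is an atypical receptor that binds CXCL12, does not couple to G proteins in the classical way and carries the ligand into the cell for degradation, so that the levels of ligand and scavenger together shape how much CXCL12 a tissue presents.

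The genome placed the ligand apart from the other members. Cxcl12 (ENSMUSG00000061353) lies at chr6:117168535-117181367 on the plus strand of mm10, Ackr3 (ENSMUSG00000044337) at chr1:90203980-90216751 on the plus strand and Cxcr4 (ENSMUSG00000045382) at chr1:128588199-128592293 on the minus strand. Each overlapped 0 other annotated genes, so no reads had to be shared between neighbours. The 250 bases before each RefSeq start (GRCm38.p6) are shown because all 3 genes differed by cell class in transcript level. They are chr6:117168285-117168534, chr1:90203730-90203979 and, read on the minus strand, chr1:128592300-128592549. Capitals mark the GC box GGGCGG, the TATA box TATAAA and the hypoxia response core GCGTG on either strand.
Cxcl12: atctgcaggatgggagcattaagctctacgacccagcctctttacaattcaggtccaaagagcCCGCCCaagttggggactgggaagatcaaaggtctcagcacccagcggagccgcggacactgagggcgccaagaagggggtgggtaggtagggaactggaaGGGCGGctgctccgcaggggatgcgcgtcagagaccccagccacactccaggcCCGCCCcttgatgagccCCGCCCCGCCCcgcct
Ackr3: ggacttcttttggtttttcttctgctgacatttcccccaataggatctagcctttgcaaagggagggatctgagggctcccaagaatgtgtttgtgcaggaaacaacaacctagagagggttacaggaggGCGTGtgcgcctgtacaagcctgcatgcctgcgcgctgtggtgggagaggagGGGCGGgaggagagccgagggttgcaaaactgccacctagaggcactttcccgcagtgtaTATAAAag
Cxcr4: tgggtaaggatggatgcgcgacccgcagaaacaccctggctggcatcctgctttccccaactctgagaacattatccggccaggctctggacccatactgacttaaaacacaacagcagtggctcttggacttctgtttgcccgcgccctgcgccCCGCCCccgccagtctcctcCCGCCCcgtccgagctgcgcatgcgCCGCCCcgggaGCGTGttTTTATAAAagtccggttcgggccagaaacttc
The Cxcl12 stretch held 5 GC boxes and no TATA box, with 64.4% G and C against a median of 52.4% over 32841 promoters. The Ackr3 stretch held 1 TATA box, 1 GC box and 1 GCGTG at 54.0% G and C. The Cxcr4 stretch held 3 GC boxes, 1 GCGTG and TATAAA on both strands in overlapping positions, at 61.2% G and C. Of all promoters of this length, 12.4% held a TATA box, 32.7% a GC box and 28.2% GCGTG. The NF-kB consensus was at 0 matches in all 3 stretches and was held by 3.90% of promoters. These matches describe letters, not binding.

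Cells were assigned by marker genes that hold none of the 3 members. A stromal cell carried at least 5 of 8 stromal markers, such as Col1a1, Pdgfra and Pdgfrb, and at most 3 of 8 leukocyte markers, such as Ptprc and Tyrobp, and a leukocyte the reverse. Stromal cells were split by a score, the mean log2 level of a Pi16 and Myoc list minus that of a Cxcl14 and Gdf10 list, and leukocyte names stand for cells that are, for example, neutrophil-like by their markers. The study calls the Pi16/Myoc population lymphatic muscle cells and the Cxcl14/Gdf10 population vascular smooth muscle cells. The contractile genes that define smooth muscle were close to absent here: the summed level of Myh11, Acta2, Tagln and 5 others was 9.85 to 44.7 UMIs per 1000000 (CPM) in Pi16/Myoc cells and 7.25 to 18.8 CPM in Cxcl14/Gdf10 cells, with 2 to 7 of the 8 genes at 0, against 10832 to 25574 CPM for the stromal list. The study also found limited Acta2, Myh11 and Tagln, and gives low read depth as a possible reason. It based its names on other evidence, such as Cald1, Tpm1 and Pdgfrb levels and staining for alpha smooth muscle actin. It could not fully exclude myofibroblasts of the surrounding tissue. Here the cells are called by their leading genes.

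The libraries held 454 to 5488 cells and 2357031 to 68773605 UMIs, the counts of unique molecules. In the order tdT1, tdT2, WT and TNF-Tg, which is kept below, gated stromal cells numbered 883, 228, 2114 and 1073, and gated leukocytes 138, 149, 2823 and 2070. The tdT1 library stood apart, with 34.3% of its cells over 10% mitochondrial UMIs against 0.220% to 4.59% elsewhere, and 18.1% among its Pi16/Myoc cells. Without such cells and those of few genes, Ackr3 in tdT1 Pi16/Myoc cells was 1059 CPM against 1039 CPM with them, and Cxcl12 229 against 224 CPM. The libraries shared 0 to 5 cell barcodes in a pair.

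The ligand and the scavenger were stromal genes, and the signalling receptor was a leukocyte gene. Over all gated stromal cells, Cxcl12 was at 401, 570, 291 and 955 CPM, and over all leukocytes at 8.59, 25.3, 11.0 and 5.56 CPM. Ackr3 was at 801, 363, 354 and 355 CPM in stromal cells, and at 12.2, 0, 2.27 and 1.19 CPM in leukocytes. The reverse held for Cxcr4, with 111, 73.5, 41.7 and 24.8 CPM in leukocytes and 10, 0, 7 and 4 UMIs in total among the stromal cells, or 0 to 0.893 CPM. The compartments did not overlap for any of the 3 genes, though the share of all genes that separate in this way was not counted.

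In sums per library with the library as a block, Cxcl12 was 5.69 ± 0.53 log2 units higher in stromal cells than in leukocytes (estimate ± SE, n = 4 libraries; adjusted p = 3.39e-05, edgeR's quasi-likelihood test with Benjamini-Hochberg adjustment, two-sided). Ackr3 was 7.47 ± 0.43 units higher (edgeR adjusted p = 1.91e-06) and the difference of Cxcr4 was -6.99 ± 0.30 (edgeR adjusted p = 4.71e-07). At an adjusted p under 0.01, 24.5% of the 13787 genes tested were higher in stromal cells and 21.4% lower, so a call by itself was common, while 7.34% of genes had a larger positive difference than Cxcl12 and 3.58% one larger than Ackr3, and 4.30% lay further down than Cxcr4. Since the classes were set by expression in the same cells, these p-values speak at most to how steady the difference was over libraries of pooled mice. Each SE and p-value also rests in part on an error shared over genes, not only on the spread of that gene over the libraries.

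**Figure D1:**
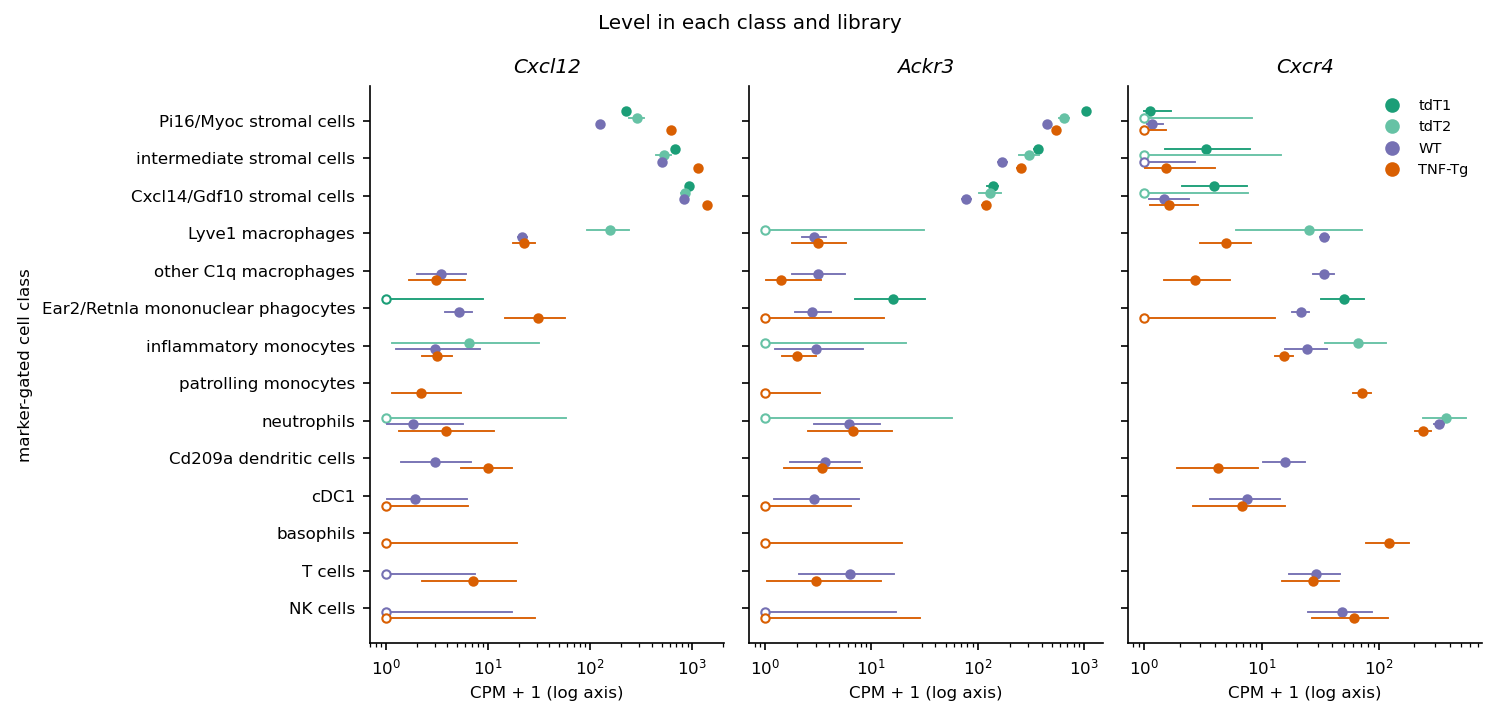
Level of Cxcl12, Ackr3 and Cxcr4 in marker-gated classes of at least 20 cells, by library. Endothelium, mast cells and leukocytes of no resolved type are not drawn. The 34 endothelial cells of tdT1 held Ackr3 at 179 CPM, above Cxcl14/Gdf10 cells at 138, and Cxcl12 at 113 CPM. The x axis is CPM + 1 on a log scale, lines are 95% Poisson intervals (counting error only) and open circles are classes with 0 UMIs. Cxcl12 and Ackr3 sit at the right in the 3 stromal classes, where their orders run opposite ways, and Cxcr4 is highest in neutrophils at 239 to 370 CPM.

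Within the stroma, ligand and scavenger took opposite places. Cxcl12 was highest in Cxcl14/Gdf10 cells, at 923, 856, 829 and 1378 CPM. In Pi16/Myoc cells it was at 224, 284, 124 and 613 CPM, so every Cxcl14/Gdf10 value lay above every Pi16/Myoc value. The intermediate cells, between the cuts of the score, lay between them in each library at 670, 526, 505 and 1149 CPM.

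Ackr3 ran the other way. It was at 1039, 644, 447 and 543 CPM among Pi16/Myoc cells, and at 138, 131, 77.5 and 118 CPM among Cxcl14/Gdf10 cells. Intermediate cells held 370, 306, 170 and 257 CPM. The groups did not overlap, and in every library the 95% Poisson intervals of the 3 classes were apart for Ackr3 and for Cxcl12. How many of all genes separate like this was not counted.

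The difference was tested over the 4 libraries with the library as a block. The classes were set by a score on the same cells, with marker lists chosen when earlier results of these data were known. The study had already reported Ackr3 as higher in its lymphatic muscle cells, so that direction was known before the test. Cxcl12 was 1.97 ± 0.20 log2 units, or 3.91-fold, higher in Cxcl14/Gdf10 than in Pi16/Myoc cells (SE, n = 4 libraries; edgeR quasi-likelihood adjusted p = 5.38e-06). Without the library block it was at 1.77 and no longer called (edgeR adjusted p = 0.0565; range over all alternatives 2.52e-34 to 0.0565). The difference of Ackr3 was -2.42 ± 0.16 units, 5.35-fold lower (edgeR adjusted p = 6.86e-08). Of 11753 genes tested, 7.44% were called higher and 6.24% lower, and 1.46% of genes had a larger difference downward than Ackr3. Here too each SE and p-value rests in part on an error shared over genes, not only on the spread of that gene over 4 libraries. Cxcr4 was too low to be tested.

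The size of the split varied between libraries more for the ligand than for the scavenger. The log2 ratio of Cxcl12 in Cxcl14/Gdf10 over Pi16/Myoc cells was 2.04, 1.59, 2.74 and 1.17, a mean of 1.89 ± 0.67 (SD, n = 4 libraries). That of Ackr3 was -2.91, -2.30, -2.53 and -2.21, a mean of -2.49 ± 0.31 (SD, n = 4 libraries). The narrowest Cxcl12 split, in TNF-Tg, was 2.25-fold, and the widest, in WT, 6.69-fold.

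Both genes were graded along the score. In WT, Cxcl12 was at 1032, 846, 571, 505, 236 and 90.6 CPM over 6 bins from the Cxcl14/Gdf10 end to the Pi16/Myoc end, and in TNF-Tg at 1596, 1499, 1227, 1149, 889 and 335 CPM. Ackr3 was at 62.5, 57.2, 120, 170, 306 and 489 CPM in WT and at 54.3, 78.4, 165, 257, 479 and 607 CPM in TNF-Tg. Cells of intermediate score thus had intermediate levels of both genes, and 118, 31, 158 and 153 cells lay within 0.25 of a cut.

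**Figure D2:**
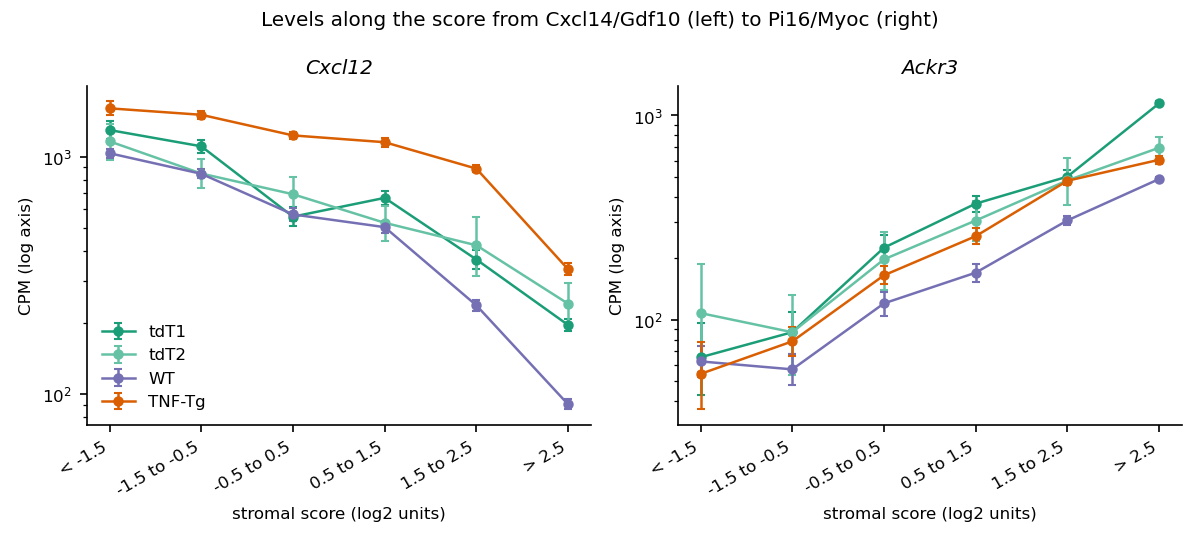
Cxcl12 and Ackr3 along the stromal score in each library. The x axis gives 6 bins of the score in log2 units, from Cxcl14/Gdf10 cells at the left to Pi16/Myoc cells at the right, the y axis CPM on a log scale, and bars are 95% Poisson intervals. Cxcl12 is lower toward the right, except for tdT1 between the third bin (558 CPM) and the fourth (670 CPM), and lies highest in TNF-Tg in all 6 bins. Ackr3 is higher toward the right from the second bin on, up to 1146 CPM in tdT1.

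The classes contributed unequally to the stromal molecules. Pi16/Myoc cells were 63.6%, 37.3%, 66.2% and 47.0% of stromal cells. They gave 39.5%, 19.0%, 31.2% and 32.9% of stromal Cxcl12 UMIs, and 91.7%, 68.0%, 92.3% and 78.4% of stromal Ackr3 UMIs. Scavenger transcripts thus came mainly from Pi16/Myoc cells in every library.

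Among leukocyte classes of at least 20 cells, Lyve1 macrophages had the highest ligand level in tdT2 and WT, but not in TNF-Tg. Their level was low in WT and TNF-Tg and higher in tdT2. Cxcl12 was at 155 CPM in tdT2 (19 UMIs in 26 cells, 95% Poisson interval 93.0 to 241), 20.7 CPM in WT (309 UMIs) and 21.7 CPM in TNF-Tg (60 UMIs), while other C1q macrophages held 2.48 CPM in WT and 2.13 in TNF-Tg. Ear2/Retnla mononuclear phagocytes of TNF-Tg lay above both macrophage classes, at 29.6 CPM on 9 UMIs from 20 cells. The WT cells of that class held only 4.18 CPM. Without predicted doublets the Lyve1 macrophage values in WT and TNF-Tg were 20.7 and 22.4 CPM, and with classes from Leiden clusters 20.3 and 34.5 CPM. Lyve1, CD163 and FOLR2 mark macrophages that sit along vessels in many tissues.

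Cxcl12 was also counted against the UMIs of the 8 stromal markers. The leukocyte gate admits at most 3 of these markers in a cell, which raises this ratio in leukocytes. The part of free RNA in leukocyte Cxcl12 was therefore not tested. Per 1000 UMIs of the 8 stromal markers, WT stromal cells held 11.4 Cxcl12 UMIs, WT Lyve1 macrophages 259 (95% interval 231 to 289) and WT other C1q macrophages 31.5 (12.7 to 65.0). In TNF-Tg the values were 45.8, 455 (347 to 585) and 79.4 (25.8 to 185). The ratio in Lyve1 macrophages was above that of the stroma in both libraries, with intervals apart, in the direction that the gate gives. Ear2/Retnla mononuclear phagocytes were also above it, at 92.7 in WT (61.6 to 134) and 900 in TNF-Tg on 9 Cxcl12 UMIs, as were Cd209a dendritic cells in TNF-Tg at 212 (106 to 379). The Lyve1 macrophages of tdT2 held 19 Cxcl12 UMIs beside 3 of the stromal markers. Neutrophils held 0, 1 and 2 Cxcl12 UMIs in tdT2, WT and TNF-Tg, too few for a fold.

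The receptor Cxcr4 was highest in neutrophils in each library that held at least 20 of them. It was at 370 CPM in tdT2 (24 UMIs, 237 to 550), 323 CPM in WT (379 UMIs, 291 to 357) and 239 CPM in TNF-Tg (167 UMIs, 204 to 278). After thinning every cell to 1500 UMIs, 36.0% of tdT2, 36.0% of WT and 26.3% of TNF-Tg neutrophils held a Cxcr4 UMI, against 0 to 0.237% of stromal cells at the same depth. Neutrophils were shallow, with medians of 2271.5, 3778 and 3235 UMIs.

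After neutrophils, the order of leukocytes had many neighbours that counting could not separate. In WT, NK cells followed at 47.9 CPM, Lyve1 macrophages at 33.2, other C1q macrophages at 33.0, T cells at 28.3, inflammatory monocytes at 23.3, Ear2/Retnla mononuclear phagocytes at 20.5 and Cd209a dendritic cells at 14.7, and the intervals of neighbours in this order overlapped. Leukocytes of no resolved type held 58.3 CPM in WT. In TNF-Tg the next classes were basophils at 120 CPM (76.8 to 178), patrolling monocytes at 71.2 (58.8 to 85.4) and NK cells at 60.3 (26.0 to 119). The cDC1, dendritic cells that cross-present antigen, were low in WT and TNF-Tg at 6.50 and 5.83 CPM. Mast cells of WT held 0 Cxcr4 UMIs in 101 cells, which allows up to 21.0 CPM.

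Neutrophils were set against Lyve1 macrophages because both were present in 3 libraries. Lyve1 macrophages held 24.4 CPM of Cxcr4 in tdT2 (3 UMIs), 33.2 in WT (496 UMIs) and 3.98 in TNF-Tg (11 UMIs), all below the neutrophil levels. Cxcr4 was 5.13 ± 0.52 log2 units higher in neutrophils (SE, n = 3 libraries; edgeR quasi-likelihood adjusted p = 3.59e-21). With 6 sums, this SE and p-value rest almost wholly on an error shared over genes, not on the spread of Cxcr4 over 3 libraries. Leaving out 1 library gave 4.16 to 6.24 units. In this contrast 19.1% of 7964 genes were called higher and 27.9% lower. Scaling decides that split: 40.7% of called genes were higher with TMM scaling and 19.9% without it, where the median of all genes moved by -0.90 log2 units and Cxcr4 was 4.21 units higher.

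Between the arthritic and the control library, the ligand differed more in Pi16/Myoc cells than in the other stromal classes. Cxcl12 rested on 2835 UMIs in WT and 4235 in TNF-Tg there, and was 4.94-fold higher in TNF-Tg (log2 ratio 2.30, 95% counting interval 2.24 to 2.37). In intermediate cells it was 2.28-fold higher, and in Cxcl14/Gdf10 cells 1.66-fold higher (0.73, 0.68 to 0.79). Of genes at 10 CPM or more in either library, 2.85% were at least 2-fold higher in Pi16/Myoc cells and 3.35% in Cxcl14/Gdf10 cells, and 0.477% and 7.96% had a larger ratio than Cxcl12. The study had already named Cxcl12 among the genes most raised in TNF-Tg in both of its muscle populations, from the same libraries. Direction and rank are therefore not independent of that report. With 1 library per condition, the intervals cover counting error only and the differences have no replicate check. The study ran each experiment on a different day, so the parts of day and transgene cannot be told apart.

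The tdT libraries give a measure of how far control libraries can lie apart. In Pi16/Myoc cells Cxcl12 was 1.81-fold higher in tdT1 and 2.29-fold higher in tdT2 than in WT, and the TNF-Tg level was 2.73-fold that of tdT1 and 2.16-fold that of tdT2. In Cxcl14/Gdf10 cells the ratios to WT were 1.11 and 1.03, and those of TNF-Tg to tdT1 and tdT2 were 1.49 and 1.61. TNF-Tg was the highest of the 4 libraries in both classes and WT the lowest, though in Cxcl14/Gdf10 cells the intervals of WT and tdT2 overlapped. Sort, sex and day of the experiment differed between the tdT libraries and WT, and for tdT1 the sequencer too, and their parts cannot be told apart here.

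The class mixture differed between the WT and TNF-Tg libraries, though by less than between tdT1 and tdT2, and it enters the pooled values. Over all stromal cells Cxcl12 was 3.29-fold higher in TNF-Tg, and 2.76-fold higher when the TNF-Tg class levels were weighted by the WT mixture. Ackr3 was equal over all stromal cells, at 1.00-fold, yet 1.22-fold higher in Pi16/Myoc cells (log2 0.28, 0.23 to 0.34), 1.51-fold in intermediate cells and 1.52-fold in Cxcl14/Gdf10 cells (0.60, 0.42 to 0.78). At the WT mixture it was 1.24-fold higher. In Pi16/Myoc, intermediate and Cxcl14/Gdf10 cells, 26.5%, 16.1% and 11.7% of genes had a larger ratio than Ackr3. In Pi16/Myoc cells TNF-Tg Ackr3 was 0.522 of tdT1 and 0.843 of tdT2. In Cxcl14/Gdf10 cells it was 0.853 of tdT1 and 0.900 of tdT2. Intermediate cells held 257 CPM in TNF-Tg, beside 370 in tdT1 and 306 in tdT2. In each class the TNF-Tg level thus lay inside the range of the other libraries, above WT only.

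Against WT, the Cxcl12 difference was larger toward the Pi16/Myoc end. TNF-Tg over WT was 1.55-fold, 1.77-fold, 2.15-fold, 2.28-fold, 3.76-fold and 3.70-fold over the 6 score bins. For Ackr3 the same ratios were 0.869, 1.37, 1.37, 1.51, 1.56 and 1.24, with no steady order. Cxcl12 in the last bin was lowest in WT, at 90.6 CPM beside 195 in tdT1, 240 in tdT2 and 335 in TNF-Tg. Set against tdT1 or tdT2, the Cxcl12 ratio of TNF-Tg was not largest in that bin. In Lyve1 macrophages the ligand differed little between TNF-Tg and WT, at 1.05-fold (log2 0.07, -0.36 to 0.47). In the Ear2/Retnla cells it was 7.07-fold higher, on 28 UMIs in WT and 9 UMIs in 20 TNF-Tg cells.

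Cxcr4 was lower in TNF-Tg in macrophages. In Lyve1 macrophages it was 8.35-fold lower (log2 ratio -3.06, -4.07 to -2.21), with 0.152% of genes further down, where 2.94% of genes were at least 2-fold lower. In other C1q macrophages it was 33.0 CPM on 93 UMIs in WT and 1.70 CPM on 4 UMIs in TNF-Tg, 19.4-fold lower (-4.28, -6.18 to -2.87). Ear2/Retnla cells held 137 UMIs in WT and 0 in the 20 cells of TNF-Tg, with the upper end of the log2 interval at -0.74. Cd209a dendritic cells were 4.53-fold lower (-2.18, -4.18 to -0.62), on 22 UMIs in WT and 4 in TNF-Tg. Of these cells 84.8% in WT and 0% in TNF-Tg lay in a Leiden cluster that took this class, so the gated cells may not match between the libraries.

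Cxcr4 was also 2.88-fold lower in leukocytes of no resolved type (-1.52, -1.94 to -1.13), on 218 and 68 UMIs. In neutrophils Cxcr4 was 1.35-fold lower (-0.43, -0.71 to -0.17), with 25.5% of genes further down and 8.85% at least 2-fold lower. In inflammatory monocytes the log2 ratio was -0.68 (-1.34 to 0.03), in T cells -0.11 (-1.29 to 1.04) and in NK cells 0.33 (-1.18 to 1.78), and these 3 intervals included 0. From shares of thinned cells with a UMI the monocyte value was -1.53. Median UMIs per cell were 12854.5 and 11157 in WT and TNF-Tg Lyve1 macrophages, and at 3000 UMIs per cell 9.54% and 2.22% of them held a Cxcr4 UMI. In tdT2, Lyve1 macrophages held Cxcr4 at 24.4 CPM (5.03 to 71.3), an interval that holds the WT level and overlaps that of TNF-Tg (1.99 to 7.12).

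**Figure D3:**
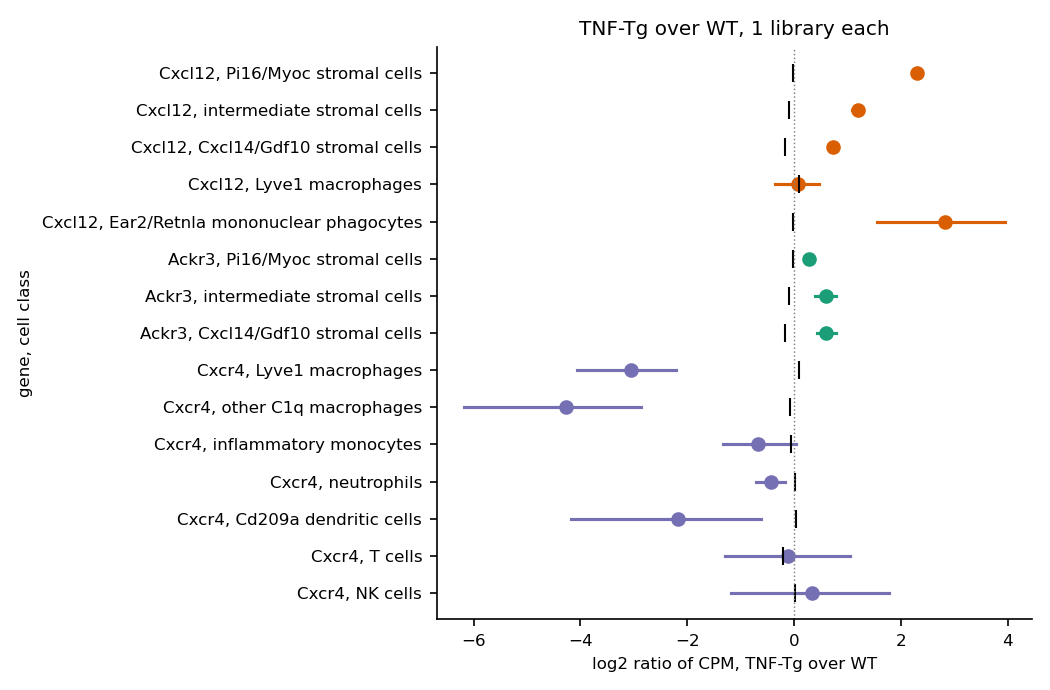
Log2 ratio of TNF-Tg over WT for each gene in the classes with enough UMIs, with 95% counting intervals from 1 library each. The x axis is the log2 ratio of CPM, and black ticks are the median of all genes in that class. Cxcl12 in Pi16/Myoc cells lies at 2.30, Ackr3 between 0.28 and 0.60, and Cxcr4 at -3.06 in Lyve1 macrophages.

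Ligand and scavenger were found in the same stromal cell less often than independence would give. After thinning to 3000 UMIs, 221 of 729 tdT1, 50 of 188 tdT2, 305 of 2031 WT and 330 of 1017 TNF-Tg stromal cells held both, or 30.3%, 26.6%, 15.0% and 32.4%. Independence within each library would give 35.3%, 32.1%, 21.5% and 37.1%. The log2 odds ratio was -1.40 (95% interval -1.88 to -0.92), -1.41 (-2.30 to -0.52), -1.58 (-1.84 to -1.31) and -1.41 (-1.83 to -0.99), intervals that treat cells of 1 library as independent.

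Within a class the odds ratios were closer to 1. Within Pi16/Myoc cells their log2 was -0.42, -0.48, -0.37 and -0.34, with an interval that left out 0 in WT (-0.74 to -0.0043) and included it in the other libraries. Within Cxcl14/Gdf10 cells it was -0.47, -1.01, -0.57 and -0.30, with 0 inside each interval. Among Pi16/Myoc cells 53.0%, 46.5%, 51.3% and 33.3% held only Ackr3 and 31.9%, 29.6%, 14.9% and 42.6% both, so TNF-Tg had the largest share of double cells and the smallest share of scavenger-only cells. Among Cxcl14/Gdf10 cells 58.3%, 61.7%, 68.3% and 70.5% held only Cxcl12. At 1500 UMIs the log2 odds ratios were -1.75, -0.99, -1.17 and -0.89 in Cxcl14/Gdf10 cells and -0.93, -0.32, -0.69 and -0.10 in Pi16/Myoc cells. Over all stromal cells they were -1.73, -1.23, -1.60 and -0.88, so the Cxcl14/Gdf10 values of tdT1 and TNF-Tg were no closer to 0 than these. In both classes the intervals at that depth left out 0 in tdT1 and WT. Without thinning the value over all tdT1 stromal cells was 1.02, the opposite sign. Unthinned Cxcl14/Gdf10 cells gave 1.11, 0.47, 1.85 and 2.08, so the values within a class depend on depth.

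The receptor was close to absent from these cells. Of the thinned stromal cells, 4 of tdT1, 0 of tdT2, 3 of WT and 0 of TNF-Tg held a Cxcr4 UMI, against 34, 15, 317 and 162 leukocytes. Of these stromal cells, 3 in tdT1 and 2 in WT also held Cxcl12.

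**Figure D4:**
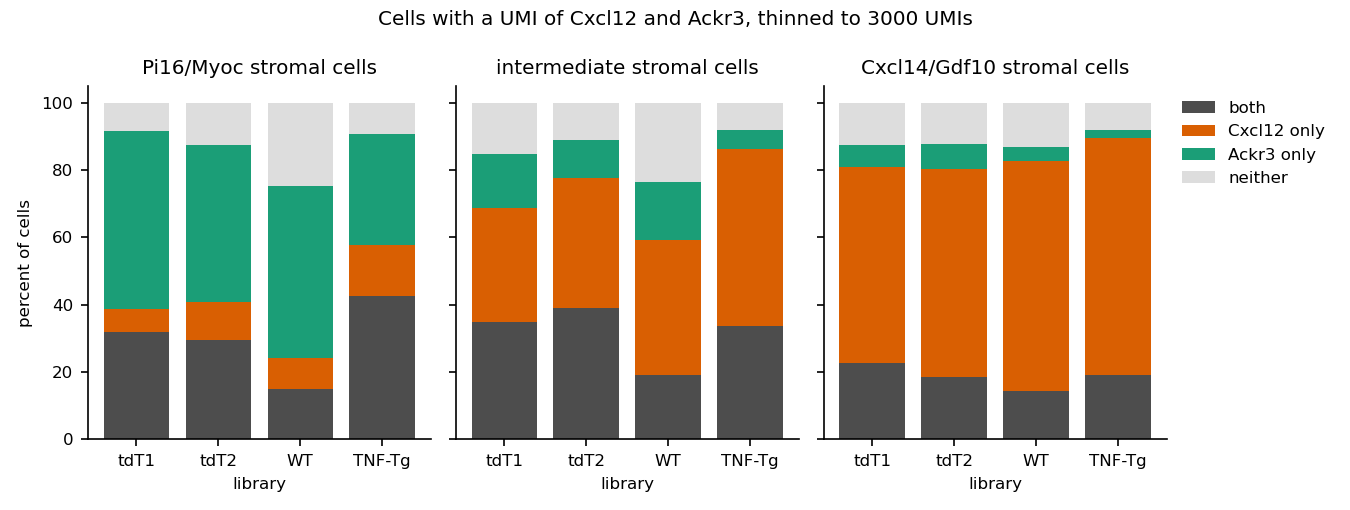
Share of stromal cells with a UMI of both Cxcl12 and Ackr3, of either alone or of neither, by class and library, each cell thinned to 3000 UMIs. The y axis is percent of cells. Scavenger-only cells fill 33.3% (TNF-Tg) to 53.0% (tdT1) of the Pi16/Myoc bars, and ligand-only cells fill 58.3% to 70.5% of the Cxcl14/Gdf10 bars.

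Other genes of the CXCL12 system were taken from a list of 63, of which 62 were measured and 60 could be tested between stroma and leukocytes. Of these 23 were higher in stroma and 23 lower in the edgeR test, beside 24.5% and 21.4% of all genes. All 3 other atypical chemokine receptors tested (Ackr1, Ackr2 and Ackr4) were higher in stroma, at 6.88, 8.52 and 5.35 log2 units. All 4 other CXC receptors tested (Cxcr1, Cxcr2, Cxcr3 and Cxcr6) were lower, as were 15 of 20 genes of receptor coupling and desensitization, a role that holds Rac2, one of the leukocyte gate markers. Of 7 proteases that cleave CXCL12, 5 were higher in stroma, led by Mmp2 at 8.14 log2 units, and 1, the neutrophil gelatinase Mmp9, was lower at -7.66.

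Between the stromal classes 48 of the list could be tested, with 11 higher and 10 lower in Cxcl14/Gdf10 cells, beside 7.44% and 6.24% of all genes. The median log2 difference of the list was -0.12 against 0.02 for all genes. The 3 other atypical receptors all lay on the side of Ackr3: Ackr1 was at -0.94 ± 0.17 and Ackr2 at -2.33 ± 0.18 log2 units (SE, n = 4 libraries), and Ackr4 held 0 UMIs in Cxcl14/Gdf10 cells. Ackr4 was near the floor in Pi16/Myoc cells too, at 2.15, 0, 3.94 and 0.145 CPM. Of 6 niche factors that CXCL12-rich marrow stroma also makes, Kitl, Vcam1 and Angpt1 were higher, at 2.29 ± 0.20, 2.35 ± 0.19 and 1.22 ± 0.20. The other three, Csf1 (-0.51 ± 0.13), Il7 (0.41 ± 0.48) and Lepr (0.20 ± 0.75), did not pass the test. The peptidase Dpp4, which trims and inactivates CXCL12, was at -4.82 ± 0.23, and Mme, another peptidase, at 1.70 ± 0.29. Of the transcription factors, Ebf1 (-0.85), Ebf3 (-1.49), Hif1a (-1.01) and Klf2 (-1.31) were lower and Foxc1 (1.03) was higher.

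In neutrophils against Lyve1 macrophages 17 of 37 tested list genes were higher and 7 lower, beside 19.1% and 27.9% of all genes, in the contrast whose split of directions depends on TMM scaling. Cxcr1 and Cxcr2, the receptors for neutrophil-attracting chemokines, were higher by 10.65 and 9.71 log2 units, fitted against macrophage levels of 0 to 0.0670 CPM of Cxcr1 and 0 to 5.06 CPM of Cxcr2, and 8 of 18 coupling genes were higher with 0 lower. Rgs1 and Rgs2, which shorten G-protein signals, were higher by 2.79 and 3.77 units.

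The same list was read between WT and TNF-Tg, without a test. In Pi16/Myoc cells 4 of 38 genes over 10 CPM were at least 2-fold higher and 2 at least 2-fold lower, with a list median of 0.00, beside 2.85% of all genes higher and 2.8% lower. In Cxcl14/Gdf10 cells 2 of 36 were higher and 3 lower, beside 3.35% and 9.4% of all genes. In Lyve1 macrophages 3 of 35 were higher and 3 lower, beside 3.89% and 2.94% of all genes. In Pi16/Myoc cells Mif, a cytokine that also binds CXCR4, was at 90.6 CPM in WT and 221 in TNF-Tg. There the transcription factor Runx1 was at 11.8 and 58.7, the proteoglycan Sdc4 at 76.4 and 182, and Vcam1 at 4.24 and 10.6. Mif was also higher in Cxcl14/Gdf10 cells and Lyve1 macrophages, by 1.31 and 1.05 log2 units. Cd74, the class II invariant chain and MIF receptor, was lower in all 5 classes examined, at a log2 ratio of -1.77 in Pi16/Myoc cells, -2.46 in Cxcl14/Gdf10 cells, -1.17 in Lyve1 macrophages, -2.56 in neutrophils and -2.34 in inflammatory monocytes. Its level was highest in leukocytes, at 7511 CPM in WT Lyve1 macrophages against 40.9 CPM in WT Pi16/Myoc cells. The leukocyte list summed to 36.1 and 36.4 CPM in WT and TNF-Tg Pi16/Myoc cells and to 44.2 and 26.4 CPM in Cxcl14/Gdf10 cells, and the part of free RNA in the Cd74 values was not tested.

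In neutrophils 0 of 32 list genes were at least 2-fold higher in TNF-Tg and 4 at least 2-fold lower, beside 10.5% and 8.85% of all genes. Cxcr1 was at 91.9 CPM in WT and 12.9 in TNF-Tg, and Cxcr2 at 1504 and 979. Rgs1 was at 59.6 and 17.2 CPM.

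The genes closest to each member were found over 38 sums of class and library in 16 classes, among 11636 genes, as a description in which sums share their libraries. Those of Cxcl12 were Fkbp9 (Pearson r of log2 levels 0.946), L3hypdh (0.942), Cyp2j9 (0.941), Tcaf1 (0.937) and Mxra7 (0.935). Those of Ackr3 were Prss23 (0.975), Plpp3 (0.973), Efemp1 (0.971), Nhsl1 (0.969) and Sulf1 (0.968), of which Efemp1 was one of the markers of the stromal score. Those of Cxcr4 were the host gene of miR-142, Mir142hg (0.932), Bcl10 (0.877), H2-D1 (0.870), Itgal (0.863) and Gm26740 (0.861). Sulf1 removes sulfate from heparan sulfate, Prss23 is a secreted protease, and Itgal is the alpha chain of the leukocyte integrin LFA-1.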

How the data were processed

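Droplet (10x Genomics 3′) libraries of live cells were made by the authors from pooled vessels, and tdT1 was sequenced on another instrument than the rest. The deposited values are UMI counts by gene and barcode. The authors produced these filtered matrices in Cell Ranger on mm10, and by the headers tdT1 was run in another version and lists 31053 genes against 32287. No normalization had been applied. Whole genes were counted from their 3′ ends, so isoforms were not separated, and levels were compared between cell classes rather than between genes.

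The 3 genes, the marker lists and the list of related genes were chosen with earlier results of these data known. The cuts of the stromal score (1.5 and 0.5) were set at the dip of its distribution after the score was seen, without the members' values. Types of leukocyte needed 65% of their markers. No cell was removed in the main analysis. Doublets were predicted with Scrublet and clusters made with Leiden in scanpy 1.11.5, seed 42, and both served as alternatives. Counts were summed per class and library and scaled to CPM, with exact 95% Poisson, Clopper-Pearson and conditional binomial intervals, which cover counting error only; a count of 0 allows up to 3 UMIs. Classes under 20 cells were not compared. The class contrasts were tested with edgeR 4.0.16 (TMM, filterByExpr, quasi-likelihood, library as a block, Benjamini-Hochberg over all genes, threshold 0.01) in R 4.3.3, after a check on simulated data; neutrophils and Lyve1 macrophages needed 10 cells each. DESeq2 1.42.0 was an alternative. The unit tested was the library, a pool of 3 mice. Cells were thinned to 3000 UMIs (or 1500), leaving out shallower ones, before co-detection was counted. WT and TNF-Tg were compared by ratios over genes at 10 CPM or more. For each member, the 5 genes with the highest correlation were named, and related genes were named by level within a role; others of that list were named after their values were seen. Promoters came from RefSeq (GRCm38.p6), gene positions from GENCODE on mm10, and all 3 genes matched. Protein sequences were not used here.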

Additional observations from a re-analysis of the deposited data

Results flagged for a closer look

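Cells that met neither gate numbered 439, 72, 549 and 241 in the order tdT1, tdT2, WT and TNF-Tg, at medians of 1372, 1657, 1502 and 3788 UMIs, and entered no comparison. Signal in these unused cells passed the limit that a count of 0 allows in every library. Cxcl12 was at 73, 19, 441 and 887 UMIs, or 64.0, 99.0, 122 and 431 CPM. Ackr3 was at 233, 8, 477 and 257 UMIs, or 204, 41.7, 132 and 125 CPM. Cxcr4 was at 38, 4, 97 and 21 UMIs, or 33.3, 20.8, 26.9 and 10.2 CPM. By these medians many of the cells are shallow, but not all need be. Predicted doublets made up 2, 0, 106 and 51 of them. Cells with mixed stromal and leukocyte markers, which meet neither gate, numbered 11, 0, 134 and 67. How the UMIs divide between shallow and mixed cells was not counted. The ungated cells can hold any type, so their levels belong to no class.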

How the results depend on the processing

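Of 166 alternative values, 144 met the rule for no change. That rule was the same direction and call, or a move below the value's own error. For counts of called genes it was a change within a set fold. Of 67 values of the 3 genes from edgeR or DESeq2, 66 kept direction and call. Without the library block 317 genes were called between the stromal classes, against 1607 with it, and Cxcl12 there was at 1.77 log2 units with adjusted p = 0.0565 (edgeR). Leaving out 1 library gave 909 to 1580 called genes (fewest without WT) and, for neutrophils over Lyve1 macrophages, 2027 (without TNF-Tg) to 3184, with 2031 without WT, against 3747; Leiden classes gave 1683. Over the same omissions Cxcl12 between stromal classes was 1.68 to 2.18 and Ackr3 -2.57 to -2.25, and without tdT1 they were 1.94 and -2.25. Adjusted p-values of these edgeR results ranged over all alternatives from 2.52e-34 to 0.0565 for Cxcl12 and from 7.93e-52 to 0.00143 for Ackr3. For TNF-Tg over WT, cuts shifted after the data were seen gave 2.21 for Cxcl12 and 0.19 for Ackr3 in Pi16/Myoc cells and 0.29 for Ackr3 in Cxcl14/Gdf10 cells. Means over cells gave 2.01 for Cxcl12 in Pi16/Myoc and 0.39 for Ackr3 in Cxcl14/Gdf10 cells, and Leiden classes 0.68 for Cxcl12 in Cxcl14/Gdf10 cells. Shares of thinned cells with a UMI gave 1.26 and 0.11 for Cxcl12 and 0.20 and 0.22 for Ackr3 in Pi16/Myoc and Cxcl14/Gdf10 cells, and -2.10 and -1.53 for Cxcr4 in Lyve1 macrophages and inflammatory monocytes. The log2 odds ratio of Cxcl12 and Ackr3 without thinning was 1.02 in tdT1, -1.19 in WT and -0.22 in TNF-Tg, and -0.88 in TNF-Tg at 1500 UMIs. The cause of the other shifts was not tested. No paired analysis was possible because WT and TNF-Tg are 1 library each and their labels carry no replicate number. The class contrasts were fitted within libraries by the block. Depth limits Cxcr4 in rare classes, and 1 library per condition limits every TNF-Tg value.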

Other observations

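Some classes held too few cells or libraries for a comparison. In tdT1, 34 endothelial cells held Cxcl12 at 113 CPM, Ackr3 at 179 CPM and 0 Cxcr4 UMIs. The 10 contractile smooth muscle cells of tdT1 held Cxcl12 at 339 CPM (227 to 487) and Ackr3 at 58.4 CPM (19.0 to 136). The 13 B cells of tdT1, a cell type that uses CXCR4 to home to marrow and lymph node dark zones, held Cxcr4 at 458 CPM on 29 UMIs (307 to 658). Patrolling monocytes held Cxcr4 at 402 CPM in tdT1, 311 in tdT2 and 374 in WT, each on at most 5 cells, beside 71.2 CPM in the 186 cells of TNF-Tg. The 5 neutrophils of tdT1 held 24 Cxcr4 UMIs, or 1241 CPM.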
